A study of Mus musculus with 4 samples.

Results

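Rmst, Malat1, Neat1, Miat, Sox2ot, Pantr1 and Snhg11 are long noncoding RNAs found in nuclei of the developing brain, and their levels were followed in single nuclei of the embryonic mouse cortex. They are 7 of the 56884 genes in the deposited count tables, matched by gene name. They were chosen with their library-scaled level in view (CPM, a gene's transcripts relative to all transcripts of the same nuclei), per library, per marker-gated class (hem, radial glia, Eomes progenitors, layer neurons, interneurons) and per genotype, so those levels and genotype differences are given as a description without a test. Tests of the members are read only for contrasts that played no part in the choice, and the genotype fits over all genes are given as background.

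The nuclei came from medial neocortex at E16.5. Libraries of the Dnmt1 KO genotype (Sst-Cre/tdTomato/Dnmt1 loxP2, n = 2) lack Dnmt1, the maintenance DNA methyltransferase, only in cells in which Sst-Cre has been active, and the control libraries (Sst-Cre/tdTomato, n = 2) carry the same Cre and reporter. Sst-Cre acts in postmitotic somatostatin interneurons, so radial glia, progenitors and excitatory neurons were not the cells targeted. Each library stood for 1 brain, and Dnmt1 KO 1, Dnmt1 KO 2 and control 1 were labelled batch 1 while control 2 was alone in batch 2, so that batch 2 and the second control brain cannot be told apart.

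Long noncoding RNAs are transcripts without a long open reading frame, and many stay in the nucleus. Malat1 concentrates in nuclear speckles, where splicing factors are stored, and Neat1 is the scaffold of paraspeckles. Miat, also called Gomafu, forms its own nuclear foci in neurons and is bound by splicing factors such as SF1, QKI and CELF proteins through UACUAAC repeats. Rmst is a neural RNA that binds the transcription factor SOX2, Sox2ot is the long transcript that contains Sox2 in an intron, Pantr1 is transcribed away from the neural gene Pou3f3, and Snhg11 is a host of small nucleolar RNAs expressed in neurons.

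In all, 29656 of 1127729 barcodes held 1500 to 60000 transcripts, with 4905 to 12064 nuclei per library, median depths of 12274 to 21140 transcripts and 0 barcodes shared between libraries. Control 2 stood apart: it was the deepest library, and its barcodes below 1500 transcripts had a different RNA content, which is described below with Snhg11. Barcodes above 60000 transcripts, which were left out, held 1.35 and 4.37% of all transcripts in the Dnmt1 KO and 19.2 and 29.4% in the control libraries. The part of this loss in the genotype differences was not tested. Classes were gated by fixed markers. Of these, 9 of 9 were detected at a higher level than in other nuclei in hem, 11 of 11 in radial glia, 7 of 8 in Eomes progenitors, 13 of 16 in layer neurons and 15 of 16 in interneurons, which describes the gate and is no independent check of the names, since the same markers assigned the nuclei. The class names stand for hem-like, radial glia-like nuclei and so on. Dnmt1 in interneurons was 60.2 CPM in Dnmt1 KO 1, 49.5 CPM in Dnmt1 KO 2, 73.7 CPM in control 1 and 54.8 CPM in control 2, so the genotypes overlapped. Counts over the whole gene, in a class that also holds cells without Sst-Cre, do not check the deletion.

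The genome positions below are in the files' build, GRCm39, with GENCODE vM39 annotation. Rmst lies at chr10:91906899-92001132 on the minus strand, spans 94.2 kb of which 8.34 kb is exonic, and carries the microRNA genes Mir135a-2 and Mir1251 in its introns. Malat1 (chr19:5845717-5853602, minus strand) and Neat1 (chr19:5874736-5897132, minus strand) are neighbours that are exonic over their whole spans of 7.89 and 22.4 kb. Miat lies at chr5:112361094-112377261 on the minus strand, with an antisense long noncoding RNA, Gm26953, over 13956 of its bases. Sox2ot spans 631 kb at chr3:34158419-34789489 on the plus strand, of which 4.03% is exonic, and Sox2 (chr3:34704554-34706610) sits in one of its introns on the same strand. Pantr1 (chr1:42629754-42734584, minus strand) starts inside Pou3f3 (chr1:42734085-42742336, plus strand), so that the genes overlap head to head by 500 bases. Snhg11 lies at chr2:158217558-158228071 on the plus strand. Whether the counting used strand is not given in the sources used here, so reads in overlaps with antisense genes cannot be assigned with certainty. Such overlaps touch exons of Malat1, Neat1, Miat, Sox2ot and Pantr1, and introns of Sox2ot as well, where Gm38505 alone covers 121351 bases. On the same strand Pantr1 shares 47225 bases with Pantr2 and Rmst 31815 bases with another long noncoding RNA, exons included.

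The hosted microRNAs are shown because they are cut from introns of Rmst. Their mature forms were not measured, and their own gene entries held 0 transcripts of Mir135a-2 and 2 to 6 of Mir1251 per library. Capitals mark the seed, bases 2 to 8, and the sequences are from RefSeq (table build GRCm38.p6).
mmu-miR-135a-5p: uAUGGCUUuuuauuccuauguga
mmu-miR-1251-5p: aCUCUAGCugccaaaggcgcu

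The start window of Pantr1, 250 bases before to 50 after the annotated gene start, is shown because it lies inside Pou3f3, whose level ran with that of Pantr1, and because CG pairs are the substrate of DNMT1. Capitals mark each CG, a motif that reads the same on both strands. The window (chr1:42734535-42734834, minus strand) held 20, a number reached by 10.6% of 78252 annotated gene starts, and the Pou3f3 start itself held 21. The median gene start held 4, and no methylation was analysed here.
Pantr1: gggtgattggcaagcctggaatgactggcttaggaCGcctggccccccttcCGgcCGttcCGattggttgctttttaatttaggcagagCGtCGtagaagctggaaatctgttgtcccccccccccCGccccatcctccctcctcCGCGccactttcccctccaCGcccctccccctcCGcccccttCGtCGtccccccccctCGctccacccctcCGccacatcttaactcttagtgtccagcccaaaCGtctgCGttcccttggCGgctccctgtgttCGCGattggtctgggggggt

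The stretch of Miat with the most TACTAAC repeats is shown because the exons of Miat held more copies of this motif than those of the other 6 RNAs. There were 6 copies on the sense strand in Miat, 1 in Neat1 and 0 in the exons of Rmst, Malat1, Sox2ot, Pantr1 and Snhg11. Over the whole span, introns included, the much longer Sox2ot held 18 and Rmst 3, or 0.0285 and 0.0318 copies per kb against 0.371 in Miat. The window below (chr5:112365185-112365334, minus strand, wholly exonic) has 3 copies in capitals and was placed to hold the most. Of 986704 windows of 150 bases tiled along chromosome 5, 1.02% held the motif on either strand and 13 held as many copies. Tiles are not placed on motifs and can split a cluster, so these numbers do not measure how rare the window is.
Miat: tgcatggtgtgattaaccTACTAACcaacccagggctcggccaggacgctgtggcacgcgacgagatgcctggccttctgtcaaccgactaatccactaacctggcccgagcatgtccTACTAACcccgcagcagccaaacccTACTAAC

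Per exonic kilobase, Malat1 was far more abundant than the other members over all nuclei, at 1627 ± 177 CPM per kb (SD, n = 4 libraries). Rmst (47.4 ± 35.2), Pantr1 (33.1 ± 7.06), Sox2ot (29.8 ± 15.6) and Miat (28.3 ± 7.50 CPM per exonic kb) overlapped in their library ranges. Snhg11 stood at 4.68 ± 1.92 and Neat1 at 0.253 ± 0.0388 CPM per exonic kb. Nuclear RNA also holds introns, and per kilobase of the whole span the order changed, with Miat at 18.5 ± 4.89, Rmst at 4.19 ± 3.12, Snhg11 at 3.79 ± 1.56, Pantr1 at 2.83 ± 0.603 and Sox2ot at 1.199 ± 0.628 CPM per kb. The deposited values count transcripts, and undivided by length the order differed again. Sox2ot averaged 757 ± 396, Rmst 395 ± 294, Miat 299 ± 79.1, Pantr1 297 ± 63.2, Snhg11 39.9 ± 16.4 and Neat1 5.67 ± 0.869 CPM. Malat1 alone supplied 11170 to 14555 CPM, and leaving it out of the library totals is among the alternatives.

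**Figure D1:**
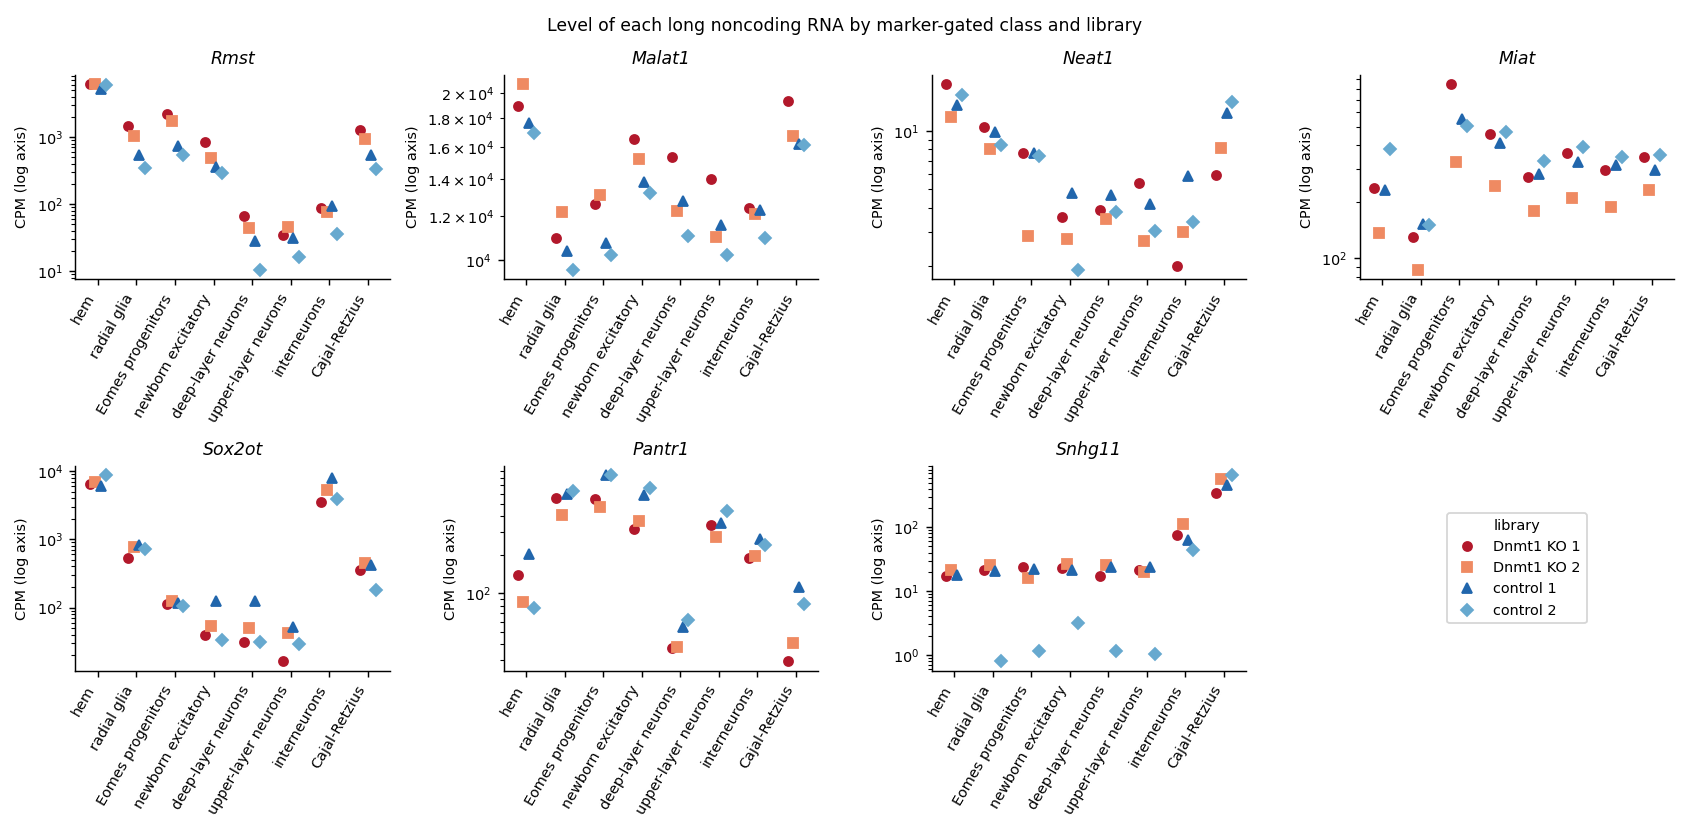
CPM on log axes of each long noncoding RNA in 8 marker-gated classes, 1 point per library (red and orange, Dnmt1 KO 1 and 2; dark and light blue, control 1 and 2). Of the classes drawn, Rmst and Sox2ot were highest in hem nuclei on average and were far lower in layer neurons. Malat1 was at 9588 CPM or above in every class, Pantr1 was high in progenitors and upper-layer neurons, and Snhg11 was highest in Cajal-Retzius neurons. In control 2, Snhg11 was near 1 CPM in radial glia, Eomes progenitors and deep- and upper-layer neurons. The 0 of Snhg11 in hem nuclei of control 2 is not drawn.

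Among the 9 classes ranked, Rmst was highest in hem, and in progenitors its Dnmt1 KO and control values lay apart. In hem nuclei, the Wnt-secreting edge of the cortex, it stood at 6144 CPM in Dnmt1 KO 1, 6216 in Dnmt1 KO 2, 5165 in control 1 and 5987 in control 2. Both Dnmt1 KO values were above both controls there too, with a log2 difference of 0.15 ± 0.21 (SE). Like the differences below, it is a description and no test. In radial glia, the cortical stem cells, Rmst was at 1450.3 and 1053 CPM in the Dnmt1 KO and 549 and 349 CPM in the control libraries. In Eomes progenitors, the intermediate progenitors of excitatory neurons, the 2 Dnmt1 KO libraries had 2240.4 and 1731 CPM and the controls 743 and 542 CPM. All Dnmt1 KO values exceeded all control values in these classes as well, with log2 differences of 1.51 ± 0.27 in radial glia and 1.69 ± 0.23 in Eomes progenitors.

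Newborn excitatory neurons had 854 and 487 CPM of Rmst in the Dnmt1 KO and 357 and 295 CPM in the control libraries, and Cajal-Retzius neurons had 1292 and 943 CPM against 541 and 331 CPM. Layer neurons held little of it, at 59.1 and 44.7 CPM against 29.4 and 13.2 CPM (log2 difference 1.33 ± 0.39, or 0.86 without control 2 and 2.01 without control 1). In interneurons, the class that holds the targeted cells, Rmst was at 86.4 and 75.7 CPM in the Dnmt1 KO and 94.8 and 35.7 CPM in the control libraries, so the genotypes overlapped (0.38 ± 0.42). Within batch 1, without control 2, the log2 difference was 1.21 in radial glia and -0.13 in interneurons, where it was 1.22 without control 1.

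The 9 classes ranked leave out choroid plexus, meningeal, microglial, oligodendrocyte precursor and striatal nuclei, which were very few in some libraries. Choroid plexus nuclei had more Rmst than hem in 3 of 4 libraries, from 1 or 2 nuclei each. Over the 9 classes, the means of Rmst ran from 5878 CPM in hem to 31.8 CPM in upper-layer neurons, a ratio of 185. Neighbours in this order were Eomes progenitors (1314 ± 807), radial glia (850.5 ± 498), Cajal-Retzius neurons (777 ± 427) and newborn excitatory neurons (498 ± 250 CPM, SD, n = 4). Their gaps were within the spread over libraries, although within every library the order was the same.

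Dnmt1 KO and control radial glia differed both in how many nuclei carried a high level of Rmst and in the level of the rest. A level of 3000 CPM, set after the values were seen, was exceeded in radial glia by 16.8% of nuclei in Dnmt1 KO 1 (exact 95% interval 14.5 to 19.2%), 12.7% in Dnmt1 KO 2 (10.9 to 14.6%), 6.41% in control 1 (4.81 to 8.34%) and 3.82% in control 2 (2.32 to 5.91%). The intervals take nuclei as units and cover counting error only, not the spread between brains. The level within the high nuclei was 5328, 5285, 5137 and 4648 CPM, and these nuclei supplied 59.8 to 70.8% of the class's Rmst transcripts. Below the line, radial glia held 592, 358, 211 and 147 CPM, in the same order of libraries. Of the radial glia, 132, 111, 45 and 15 nuclei lay between 2000 and 4000 CPM, so the line cuts a range.

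Eomes progenitors had the same order of libraries in the shares over the line, 26.2% and 21.6% in the Dnmt1 KO and 9.36% and 5.30% in the control libraries. Below the line they held 692 and 474 CPM in the Dnmt1 KO and 212 and 269 CPM in the control libraries. Control 2 was thus above control 1 there, unlike in radial glia. In hem, with 24 to 110 nuclei per library, the shares were 82.4, 86.4, 76.5 and 75.0%, and in layer neurons they were at most 0.463%. After thinning each nucleus to 1500 transcripts, 46.1 and 30.3% of radial glia of Dnmt1 KO and 19.97 and 14.5% of those of control libraries held at least 1 Rmst transcript, against 63.9, 42.8, 35.1 and 28.2% before thinning. Control 2, the deepest library, had the lowest share at either depth, and the part of depth in the shares was not tested. Layer neurons, where Rmst is scarce, held it in 14.8% of nuclei or fewer without thinning, at median depths of 16024 to 25762 transcripts against 10801.5 to 17528 in radial glia.

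**Figure D2:**
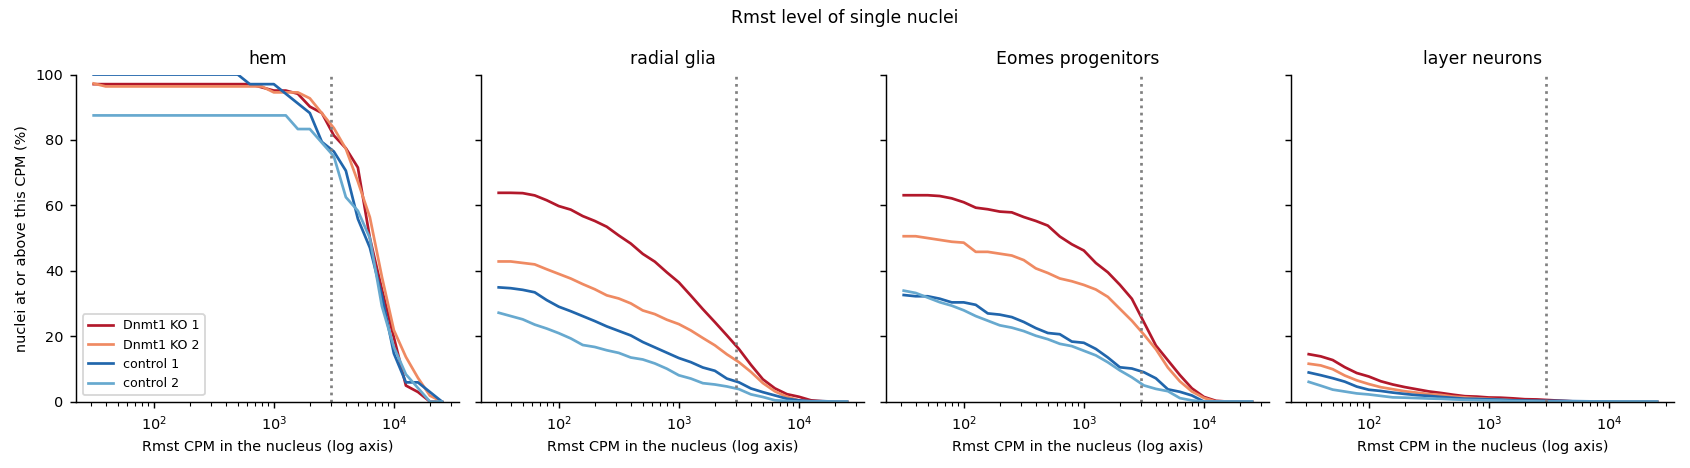
Share of nuclei (%) at or above a given Rmst CPM (log axis) in hem, radial glia, Eomes progenitors and layer neurons, 1 line per library, with the 3000 CPM level dotted. At the dotted level both Dnmt1 KO lines lie above both control lines in hem (75.0 to 86.4% over all 4), radial glia and Eomes progenitors, at 16.8 and 12.7% against 6.41 and 3.82% of radial glia.

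The radial glia over the line shared other genes in every library. By the smallest log2 difference over the 4 libraries, the leading genes that were higher in them were Gm29521, Sned1, Tmem132c, Grm3 (a metabotropic glutamate receptor), Pdlim3 and Rnf43 (a ubiquitin ligase that lowers Wnt receptors). Ranks 7 to 11 were Pappa, Ephb1, Adamts19, Thsd7b and Cacna2d3. Tmem132c was at 1067 ± 173 CPM in high against 63.7 ± 33.6 CPM in other radial glia (SD, n = 4). Apcdd1, a Wnt inhibitor at rank 12, was at 139 ± 33.2 against 10.5 ± 1.30 CPM. The leading genes that were lower were Tox, Fstl5, Hmga2, Ntm and Eva1c. Tox stood at 17.96 ± 14.2 against 641 ± 269 CPM, and Meis2, a homeobox gene at rank 11 of the lower genes, at 936 ± 170 against 4830 ± 332 CPM. Among the other members, Pantr1 was lower in high nuclei in 4 of 4 libraries (232 ± 70.9 against 585 ± 88.7 CPM), as were Pou3f3 and Sox2, and Malat1 was higher in 4 of 4 (12805 ± 1278 against 10512 ± 1008 CPM). The nuclei were divided by Rmst itself and the genes chosen by their values, so none of this was tested.

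Summed hem markers were higher in radial glia of both Dnmt1 KO libraries, with Rspo3 the largest part of the sum in every library. The 9 hem markers summed to 59.9 and 38.8 CPM in radial glia of Dnmt1 KO and 33.0 and 26.3 CPM of control libraries, with 0 to 2 of the 9 at 0 in a library, among them Wnt3a in 2. Rspo3 was at 34.3, 22.3, 17.98 and 16.7 CPM and Wnt8b at 16.48, 4.94, 3.76 and 3.36 CPM in Dnmt1 KO 1, Dnmt1 KO 2, control 1 and control 2. Bmp6 (1.13, 3.61, 6.97 and 1.48 CPM) and Wnt2b (1.45, 1.14, 1.74 and 0.790 CPM) were highest in control 1. Rspo2 (0.888, 3.31, 1.19 and 2.07 CPM) was lowest in Dnmt1 KO 1, so not all markers had the order of Rmst. In Eomes progenitors the sums were 35.7 and 48.4 against 19.4 and 32.5 CPM, with 2 or 3 markers at 0, and Dnmt1 KO 2, not Dnmt1 KO 1, had the highest. In interneurons they were 29.5, 25.9, 26.7 and 31.9 CPM, and the genotypes overlapped. The same sum was 143 to 257 CPM in layer neurons, where Rspo3 alone supplied 128 to 249 CPM and Rmst was low. Hem nuclei made up 1.81 and 0.912% of Dnmt1 KO and 0.482 and 0.489% of control nuclei. The part of hem-related or medial tissue in the Rmst difference was not tested. Sublibraries, each of other nuclei from the same brain, ranged from 1228 to 1730.5 CPM in radial glia of Dnmt1 KO 1, 707 to 1514 in Dnmt1 KO 2, 375 to 810 in control 1, over 8 sublibraries each, and 343 to 356 CPM in control 2, over only 2.

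Pantr1 ran the other way, together with Pou3f3, the POU-domain transcription factor whose start it overlaps. In radial glia Pantr1 was at 557 and 411 CPM in the Dnmt1 KO and 594 and 629.6 CPM in the control libraries, and Pou3f3 at 181 and 152 against 195 and 237 CPM. In Eomes progenitors Pantr1 was at 549 and 475 against 840.4 and 838 CPM. Newborn excitatory neurons showed 319.6 and 371 against 589 and 669.8 CPM. Both genes were lower in both Dnmt1 KO libraries than in either control in radial glia, Eomes progenitors, layer neurons and interneurons. The log2 differences of Pantr1 in these 4 classes were -0.30 ± 0.16, -0.65 ± 0.14, -0.74 ± 0.19 and -0.31 ± 0.10, and those of Pou3f3 were -0.34 ± 0.13, -0.75 ± 0.14, -0.84 ± 0.16 and -0.65 ± 0.12. Layer neurons pool upper-layer and deep-layer cells, and upper-layer neurons, where Pantr1 was higher, made up 458 of 1511, 1675 of 3725, 1010 of 2180 and 1175 of 2240 of them in Dnmt1 KO 1, Dnmt1 KO 2, control 1 and control 2. The ratio of Dnmt1 KO to control means of Pantr1 was 0.780 within upper-layer and 0.655 within deep-layer neurons, with both Dnmt1 KO values below both controls in each. The part of layer makeup in the pooled value was not tested. Without Dnmt1 KO 2 the difference of Pantr1 in radial glia was -0.12 and without Dnmt1 KO 1 it was -0.51. In hem, where Pantr1 was low at 76.1 to 201 CPM, the genotypes overlapped.

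**Figure D3:**
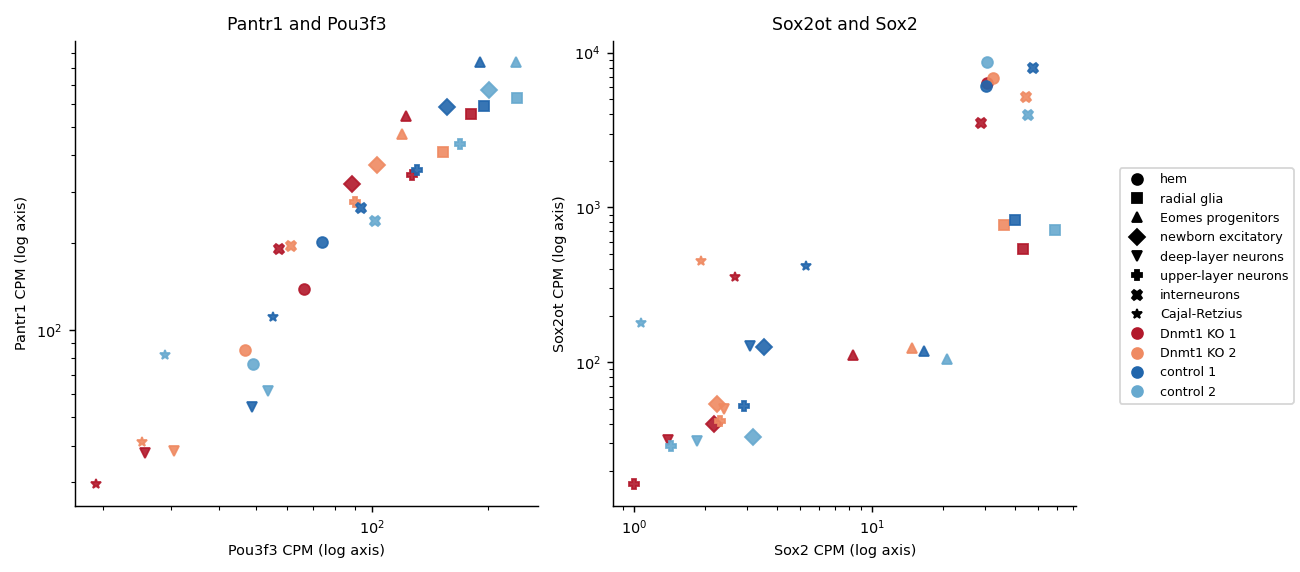
CPM on log axes of Pantr1 against Pou3f3 and of Sox2ot against Sox2, 1 point per class (shape) and library (colour). Pantr1 and Pou3f3 follow a single rising band through the classes drawn. Sox2ot differs several-fold between classes of like Sox2 level, as in hem and radial glia. Pearson r was 0.954 for Pantr1 with Pou3f3 and 0.815 for Sox2ot with Sox2. It was taken over 36 sums of 9 classes and 4 libraries, as log2(CPM + 1) centred on each library. These sums include vascular nuclei, which are not drawn, and the points drawn are not centred.

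Sox2ot was high in hem and interneurons and low in excitatory cells. Hem nuclei held 6406 and 6894 CPM in the Dnmt1 KO and 6058 and 8708 CPM in the control libraries. Interneurons held 3505.5 and 5202 CPM against 7944 and 3933 CPM, so control 1 was highest and the genotypes overlapped. Over all nuclei Sox2ot was at 460.03 and 785 against 1307 and 475 CPM, and interneurons made up 5.59 and 11.9% against 14.6 and 9.22% of nuclei, so the libraries had the same order in both. The part of interneuron share in the level over all nuclei was not tested. Radial glia had 539 and 774 against 833 and 716 CPM, and Eomes progenitors only 112 and 124 against 118 and 105 CPM. Sox2, the pluripotency and neural stem cell factor inside the locus, was at 43.2 and 35.9 against 40.0 and 59.1 CPM in radial glia and 28.7 and 44.3 against 47.5 and 45.3 CPM in interneurons. Radial glia and interneurons thus overlapped in Sox2 while every interneuron value of Sox2ot was more than 4 times the highest radial glia value. Oligodendrocyte precursors, few in number, also carried Sox2ot, at 2606 to 6356 CPM.

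Malat1 differed least of the 7 members over the 9 classes. Its class means ran from 18598 ± 1674 CPM in hem to 10783 ± 1101 CPM in radial glia (SD, n = 4), a ratio of 1.72, while the small choroid plexus and meningeal classes stood higher, with means of 25724 and 22519 CPM. Cajal-Retzius neurons (17095 ± 1518 CPM) were next to hem, in 3 of 4 libraries below it. In Eomes progenitors Malat1 was at 12625 and 13077 CPM in the Dnmt1 KO and 10717 and 10189.7 CPM in the control libraries, and in radial glia at 10955 and 12204 against 10385.5 and 9588 CPM. Dnmt1 KO libraries were above controls in hem, radial glia and Eomes progenitors, by log2 differences of 0.21 ± 0.22, 0.25 ± 0.16 and 0.36 ± 0.18. Under the alternatives these ran from 0.13 to 0.37, 0.15 to 0.35 and 0.30 to 0.41. In layer neurons and interneurons the genotypes overlapped.

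Neat1 was scarce in neural classes. It was at 10.4, 8.00, 9.82 and 8.40 CPM in radial glia of Dnmt1 KO 1, Dnmt1 KO 2, control 1 and control 2, and at 3.19 to 4.48 CPM in layer neurons, from 2554 transcripts in all nuclei together. Vascular nuclei held 12.6 to 32.0 CPM. Microglia, 6 to 51 nuclei per library, held 157 to 290.3 CPM from 10 to 78 transcripts, far above any neural class. The genotypes overlapped in radial glia, where the log2 difference was 0.05 ± 0.21. In interneurons both Dnmt1 KO values, 2.01 and 3.00 CPM from 8 and 52 transcripts, were below the control values of 5.84 and 3.38 CPM, from 71 and 31 transcripts. The log2 difference there was -0.74 ± 0.39, and it ran from -1.13 to -0.29 under the alternatives. In Cajal-Retzius neurons the Dnmt1 KO values were 5.88 and 8.14 against 12.3 and 13.99 CPM in the controls, from 11 to 34 transcripts.

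Miat was highest in Eomes progenitors, at 849.97 and 324 CPM in the Dnmt1 KO and 552 and 509 CPM in the control libraries, so that the 2 Dnmt1 KO brains enclosed both controls. Dnmt1 KO 2 was the lowest library in radial glia, Eomes progenitors, layer neurons, interneurons and hem. Layer neurons had 294 and 191 CPM against 299.7 and 359 CPM, and radial glia 131 and 86.8 against 153 and 150.2 CPM. Both Dnmt1 KO values were below both controls in radial glia, layer neurons and interneurons, where Dnmt1 KO 1 lay close to control 1. The log2 difference in layer neurons was -0.41 ± 0.23, or -0.12 without Dnmt1 KO 2 and -0.75 without Dnmt1 KO 1.

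Snhg11 marked Cajal-Retzius neurons, the reelin-secreting cells of the marginal zone, at 347 and 564 CPM in the Dnmt1 KO and 456 and 658 CPM in the control libraries. Interneurons followed, at 76.0 and 113 against 64.3 and 43.4 CPM. In the rest of the 9 classes ranked, control 2 was far below the libraries of batch 1. Radial glia had 21.5, 25.3 and 20.5 CPM in the 3 libraries of batch 1 and 0.790 CPM in control 2, and layer neurons had 18.1, 23.3, 23.9 and 1.09 CPM. Barcodes below 1500 transcripts, which can hold RNA from outside intact nuclei, carried Snhg11 at 993, 516 and 677 CPM in batch 1 and 16.0 CPM in control 2. The part of free RNA in the low Snhg11 levels of batch 1 was not tested.

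The barcodes below 1500 transcripts were compared with nuclei of the same library for all members, as these barcodes played no part in the choice. Neat1 was at 27.2, 14.4, 25.5 and 5.62 CPM in them, or 4.31, 2.75, 3.94 and 1.205 times its level in nuclei. Malat1 was at 1.62, 1.22, 1.53 and 1.27 times its nuclear level. Pantr1 (0.500 to 0.861 times), Sox2ot (0.550 to 0.841 times) and Rmst (0.471 to 0.934 times) were lower in these barcodes in 4 of 4 libraries. Rmst was at 382, 319, 221 and 136 CPM in them, the same order of libraries as in layer neurons. Sox2ot was at 349, 630, 719 and 400 CPM in them, above its level in layer neurons of every library. The part of free RNA in the low Rmst and Sox2ot levels of layer neurons was not tested. By edgeR's quasi-likelihood test with library as a block, 0 of 7 members passed an adjusted p of 0.05, beside 0.692% of 20953 genes. An unadjusted p under 0.05 was reached by 5 members and by 7630 of the 20953 genes. The log2 differences were 3.12 ± 0.82 for Snhg11 (adjusted p = 0.0728), 1.51 ± 0.34 for Neat1 (adjusted p = 0.0678), 0.50 ± 0.12 for Malat1 (adjusted p = 0.0686) and -0.60 ± 0.14 for Pantr1 (adjusted p = 0.0678). DESeq2 called 5 members beside 21.9% of all genes, and without control 2 edgeR called 6 members beside 38.5% of 20621 genes.

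**Figure D4:**
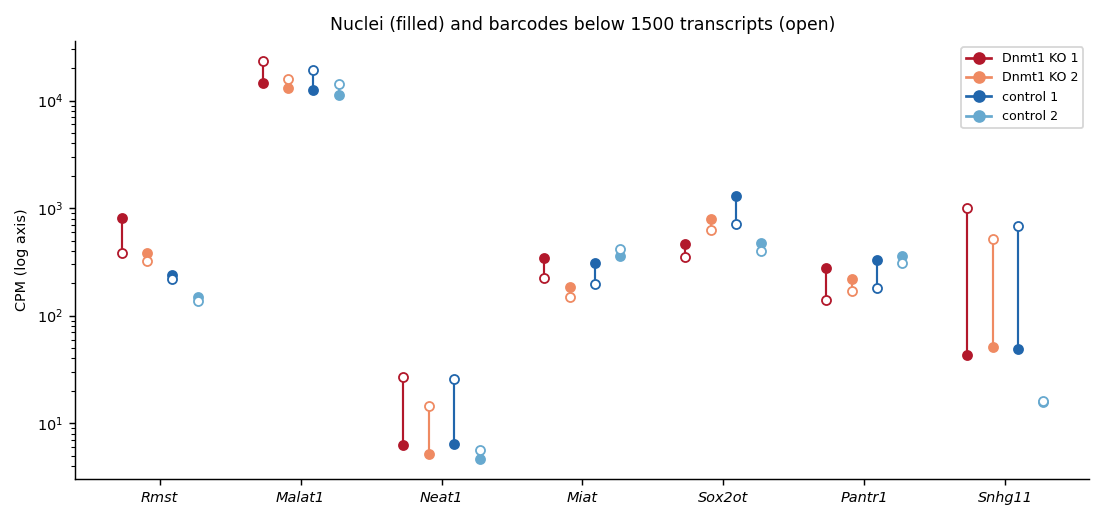
CPM (log axis) of the 7 RNAs in nuclei (filled) and in barcodes below 1500 transcripts (open) of each library. Snhg11 stands 9.98 to 23.0 times higher in the open points of the 3 batch 1 libraries and at 1.01 times in control 2. Malat1 and Neat1 are higher and Rmst, Sox2ot and Pantr1 lower in the open points of all 4 libraries.

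Across genotypes, edgeR called 0 of 7 members in all nuclei, hem, radial glia, Eomes progenitors, layer neurons and interneurons, beside 0% of all genes in each. Of all genes, 1612, 463, 902, 833, 1180 and 649 had an unadjusted p under 0.05 in these populations. DESeq2 called 0.925%, 0.193% and 0.301% of genes in all nuclei, radial glia and Eomes progenitors, each time with 1 member among them, Rmst, whose difference in this contrast was known when it was chosen, so the call is no test of it. Dnmt1 KO and control libraries did not overlap for 3 members in all nuclei (40.1% of genes), 2 in hem (34.9%), 5 in radial glia (38.3%), 3 in Eomes progenitors (38.9%), 3 in layer neurons (40.3%) and 4 in interneurons (37.4%). These contrasts chose the members, and nothing is read from their counts.

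Contrasts between cells of the same library used the quasi-likelihood test of edgeR, with library as a block and n = 4 libraries. Between deep-layer and upper-layer neurons, 4 of 7 members passed an adjusted p of 0.05, beside 35.6% of 16634 genes. Pantr1 was 37.6, 38.2, 54.2 and 61.5 CPM in deep-layer and 343, 276, 355 and 439 CPM in upper-layer neurons of Dnmt1 KO 1, Dnmt1 KO 2, control 1 and control 2. The groups were far apart, and Pantr1 fell in deep-layer neurons by 2.80 ± 0.08 on the log2 scale (adjusted p = 7.78e-06). Its neighbour Pou3f3 fell by 1.62 ± 0.13 (adjusted p = 0.000203). Sox2ot rose by 0.72 ± 0.20 (adjusted p = 0.0293), Malat1 rose by 0.24 ± 0.06 (adjusted p = 0.0180) and Miat fell by 0.18 ± 0.05 (adjusted p = 0.0361), each in 4 of 4 libraries. The call of Pantr1 held without any 1 library. That of Malat1 and Miat was lost without Dnmt1 KO 2, control 1 or control 2, and that of Sox2ot without Dnmt1 KO 1 or control 1. Deep-layer nuclei were deeper, with medians of 17537.5 to 30162 against 13236.5 to 22418 transcripts.

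Between cycling and non-cycling radial glia, divided by mitotic genes, 3 of 7 members passed, beside 18.8% of 14139 genes. Malat1 rose in cycling cells, from 9827 ± 1161 to 11254 ± 1200 CPM (log2 difference 0.21 ± 0.04, adjusted p = 0.00178), and Miat fell, from 169 ± 47.9 to 115 ± 27.7 CPM (-0.52 ± 0.08, adjusted p = 0.000585), each in 4 of 4 libraries. Neat1 fell from 11.9 ± 2.12 to 8.25 ± 1.18 CPM (-0.56 ± 0.17, adjusted p = 0.0454), a call lost without Dnmt1 KO 1, Dnmt1 KO 2 or control 1. Rmst differed by -0.26 ± 0.14 (adjusted p = 0.218) and was lower in cycling cells in 3 of 4 libraries. Without control 2 it passed, as did Snhg11, and 5 members were called beside 17.5% of 13821 genes. Malat1 and Miat were called without any 1 library. Cycling nuclei had medians of 12504 to 19060.5 transcripts and non-cycling nuclei of 8794 to 14502.

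Interneurons of medial (MGE) and caudal (CGE) ganglionic eminence identity differed in 3 of 7 members, all lower in MGE cells, beside 9.98% of 12400 genes. Sox2ot averaged 4092 ± 1230 CPM in MGE and 8750 ± 2121 CPM in CGE interneurons and fell by 1.05 ± 0.13 on the log2 scale (adjusted p = 0.00121). Sox2 fell with it, by 0.84 ± 0.14 (adjusted p = 0.00611). Pantr1 fell by 0.74 ± 0.15 (189 ± 31.2 against 332 ± 71.4 CPM, adjusted p = 0.0146), and Rmst by 0.56 ± 0.13 (63.0 ± 20.8 against 101.4 ± 44.7 CPM, adjusted p = 0.0300). All 3 were lower in 4 of 4 libraries. The call of Sox2ot held without any 1 library, that of Pantr1 was lost without Dnmt1 KO 1, Dnmt1 KO 2 or control 1, and that of Rmst without Dnmt1 KO 1, control 1 or control 2. Dnmt1 KO 1 contributed 31 CGE nuclei.

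**Figure D5:**
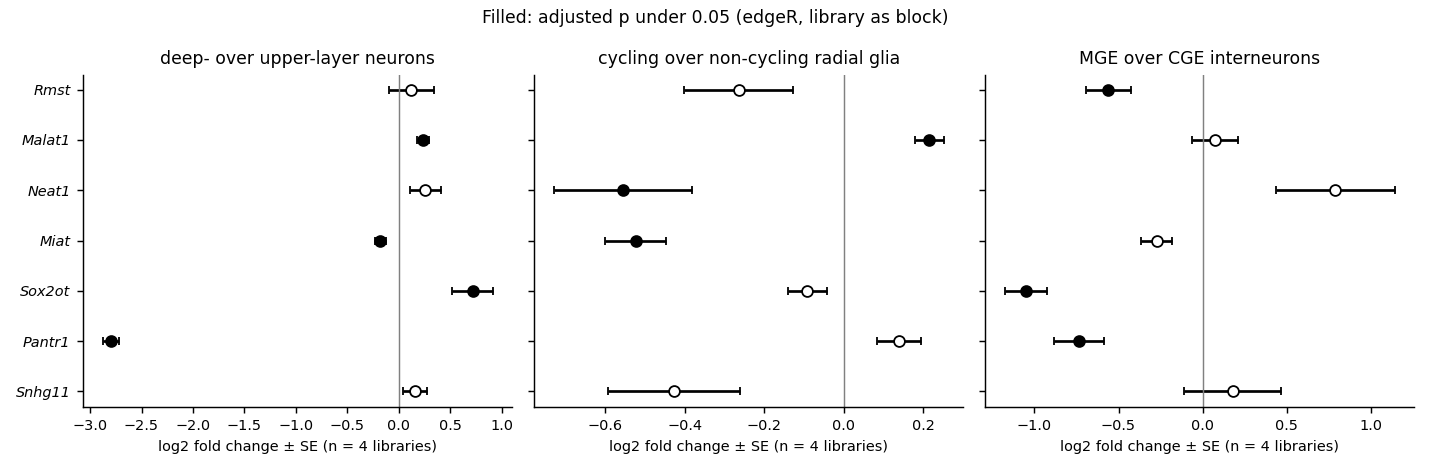
Log2 fold change ± SE of each RNA between deep- and upper-layer neurons, cycling and non-cycling radial glia, and MGE and CGE interneurons (edgeR, library as block, n = 4 libraries), filled where the adjusted p is under 0.05. Pantr1 is at -2.80 between the layers, Malat1 (0.21) and Miat (-0.52) stand to either side of 0 in cycling radial glia, and Sox2ot is at -1.05 in MGE interneurons.

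Genes tied to these RNAs were taken from 4 fixed lists. The lists were chosen with earlier results of these data known, so their counts are a description and no independent test. Of all genes tested, 10.1% rose and 8.69% fell in cycling radial glia, 19.4% rose and 16.2% fell in deep-layer neurons, and 4.72% rose and 5.27% fell in MGE interneurons, and the counts below are to be read against these shares. Of 10 paraspeckle proteins, the partners of Neat1, 7 rose and 0 fell in cycling radial glia (median log2 difference 0.28, all genes -0.01), among them Sfpq (0.30 ± 0.05, adjusted p = 0.00145) and Matr3 (0.26 ± 0.06, adjusted p = 0.00853). Neat1 itself fell there. In deep-layer neurons 3 of them fell and 0 rose (median -0.13, all genes 0.00). Of 14 speckle and splicing factors, 5 rose in cycling radial glia (median 0.17) and 6 fell in deep-layer neurons (median -0.17), where Srrm2, a speckle scaffold, fell by 0.39 ± 0.05 (adjusted p = 0.00143). In MGE interneurons 2 of the 14 rose, Celf2 (0.74 ± 0.18, adjusted p = 0.0345) and Qki (0.43 ± 0.10, adjusted p = 0.0306), while Miat differed by -0.27 ± 0.09 (adjusted p = 0.115).

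Of 7 Sox2-Notch neurogenic genes tested in interneurons, 4 fell in MGE cells and 0 rose (median -0.84, all genes 0.00). This list shares Dlx1, Dlx2, Hes1, Hes5 and Neurog2 with the gating markers. In cycling radial glia 3 of 8 rose and 1 fell (median 0.18). In deep-layer neurons 2 of 9 fell, Pou3f3 and its relative Pou3f2 (-2.23 ± 0.15, adjusted p = 0.000104). Of 16 other long noncoding RNAs tested, 6 rose and 5 fell in deep-layer neurons (median 0.01). The imprinted Meg3 rose by 2.46 ± 0.19 (adjusted p = 0.000166) and Snhg14 by 1.08 ± 0.13 (adjusted p = 0.00105), whereas Kcnq1ot1 differed by 0.04 ± 0.05 (adjusted p = 0.616). In cycling radial glia 3 of 15 rose and 0 fell, and in MGE interneurons 2 of 16 rose and 3 fell. Between genotypes 0 members of any list passed in radial glia, where the medians were -0.01, 0.00, -0.31 and 0.07 for paraspeckle, splicing, Sox2-Notch and other noncoding genes, and -0.01 for all genes.

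The genes whose levels most resembled each member over the 36 sums of 9 classes and 4 libraries were ranked by Pearson r of log2(CPM + 1) centred on each library, among 6409 genes above 20 CPM. These points share libraries and gates. Rmst was most like Slc24a3 (r = 0.930), Zbtb20 (0.921) and Megf11 (0.904). Pantr1 was most like Sncaip (0.963), Pou3f3 (0.954) and Spen (0.947), so its overlapping neighbour had rank 2 among the 6409 genes compared. Sox2ot was nearest to Tmem47 (0.919), Tox2 (0.908) and Npas3 (0.863), the last a marker used for the CGE division. Miat was nearest to Ttc3 (0.934), Brsk2 (0.930) and Scg5 (0.9295), Neat1 to Arhgef17 (0.942), Tram2 (0.934) and Rreb1 (0.930), Snhg11 to Rgmb (0.921), Car10 (0.910) and Ndnf (0.885), and Malat1 to Fam163a (0.867), Ptpre (0.860) and Kank1 (0.791). Malat1 and its chromosomal neighbour Neat1 were less alike (r = 0.478).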

How the data were processed

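Single-nucleus RNA was barcoded by split pooling (Evercode, Parse Biosciences). The authors aligned reads to GRCm39 and made per-barcode count matrices with Trailmaker (version not given in the sources used here). The labels also name Seurat 5.0.1.9001 and R 4.4.1. The deposited values are raw counts of transcripts per gene and barcode, not normalized. Barcodes were kept if they held 1500 to 60000 transcripts, with mitochondrial counts up to 10%, a limit that removed 0. Nuclei went to the class with the highest mean standardized marker score if at least 3 of its markers were detected, a rule set after the markers were fixed. Doublets (scrublet, 2.87 to 7.73% of nuclei) were kept and left out as an alternative. CPM divides summed counts by all transcripts of the class and library.

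Summed counts per class and library were fitted over all genes with edgeR 4.0.16 (quasi-likelihood, filtered for low counts, Benjamini-Hochberg adjustment) in R 4.3.3, checked on simulated data. DESeq2 1.42.0, no low-count filter, a replicate block, batch as covariate, leaving out each library, a filter on reads, a stricter gate of 4 markers and thinning to 1500 transcripts were alternatives. Each library is 1 brain, and 2 per genotype limit precision. Genes named by rule are the members, Dnmt1, their chromosomal neighbours, the 3 genes most like each member, and of each fixed list the 3 most abundant. Genes of the high-Rmst radial glia were chosen after their values were seen. Single hem markers and genes of the barcodes below 1500 transcripts were likewise named for their values. The members and lists were chosen with earlier results of these data known. Of the members' start windows, only that of Pantr1 is reported here.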

Additional observations from a re-analysis of the deposited data

How the results depend on the processing

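Between layers and between MGE and CGE cells the count of members that passed was the same with DESeq2 and without the low-count filter. Between genotypes in hem it stayed at 0, and the other counts moved with at least 1 of these choices. Between genotypes 0 passed in every population with edgeR, but DESeq2 called 1 in all nuclei, 1 in radial glia and 1 in Eomes progenitors. Without the low-count filter 1, 2, 3, 4 and 1 were called in all nuclei, radial glia, Eomes progenitors, layer neurons and interneurons. All-gene calls in these fits were 70 of 36774, 438 of 28492, 362 of 24242, 560 of 32897 and 184 of 27618. The genotype contrast chose the members, so nothing is read from these member counts. Leaving out 1 library each gave 0 to 1 in radial glia and 0 to 1 in Eomes progenitors, where the call was made without Dnmt1 KO 2 (beside 288 of 15362 and 27 of 13094 genes) and, in Eomes progenitors, also without Dnmt1 KO 1 (60 of 12875 genes); the lone sample of the reduced group is assumed to vary like the others. With the replicate block 0 members were called in any population, and the samples share only a number (correlation of deviations -0.0104, 0.0164 and 0.0435 in all nuclei, radial glia and layer neurons). Over all genes the genotype calls were 0 in the main fit and up to 199 in all nuclei, 117 in hem, 438 in radial glia, 362 in Eomes progenitors, 560 in layer neurons and 184 in interneurons under an alternative. Between deep- and upper-layer neurons 4 members passed, 1 without the library block and 1 to 3 without 1 library. Between cycling and non-cycling radial glia 3 passed, 0 without the library block and 2 to 5 without 1 library. Between MGE and CGE interneurons 3 passed and 1 to 2 without 1 library. In barcodes below 1500 transcripts 0 passed, 5 with DESeq2, 5 without the low-count filter and 0 to 6 without 1 library. All-gene calls there went from 145 to between 0 and 7949, those between layers from 5920 to as few as 3414, those of cycling cells from 2660 to as few as 1082, and those of interneurons from 1238 to between 630 and 1966. The sign turned for Rmst between layers (0.12, from -0.16 without Dnmt1 KO 1 to 0.32 without control 2, and -0.40 with doublets left out) and for Snhg11 between MGE and CGE cells (0.18, from -0.21 without control 1 to 0.50 without control 2); the cause was not tested. The alternatives were not independent of each other. For Rmst in interneurons, batch as covariate gave -0.15 and leaving out control 2 gave -0.13. Of 462 genotype differences under alternatives, 36 changed sign, none of them of Rmst outside interneurons. The smallest of Rmst in radial glia was 1.21 and the largest 1.90. Depth limits Neat1 and Snhg11, with 9 to 27 and 0 to 38 transcripts per library in hem nuclei.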

Other observations

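Rmst was also high in the few choroid plexus nuclei, at 1872 CPM in the 136 nuclei of Dnmt1 KO 2. The other libraries had 1 or 2 such nuclei, with 9204 CPM in Dnmt1 KO 1, 15360 CPM in control 1 and 9314 CPM in control 2. Malat1 was at 23813 CPM in choroid plexus nuclei of Dnmt1 KO 2. Sox2ot in nuclei assigned to striatal and LGE identity was at 1398 CPM in Dnmt1 KO 2 (58 nuclei) and 1354 CPM in control 1 (273 nuclei), and at 162 CPM in 7 nuclei of Dnmt1 KO 1 and 376 CPM in 4 nuclei of control 2.

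In the barcodes below 1500 transcripts, Snhg11 led the genes that were high in all 3 libraries of batch 1 and low in control 2 and in nuclei. Lncpint, a long noncoding RNA, came next at 279 to 558 CPM in batch 1 against 9.98 CPM in control 2, followed by Zmat4 (234 to 461 against 10.1 CPM). Cntn4, a neural adhesion molecule, was at 380 to 717 against 20.5 CPM and Syne1, a nuclear envelope protein, at 435 to 1049.8 against 33.5 CPM. These genes were picked for this pattern, so no test was made.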
